A study of Mus musculus with 8 samples.

Results

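Keratins, claudins and the classical cadherins of epithelia were followed in the livers of mice that lack Brap in hepatocytes. The members were the protein-coding genes of the deposited table whose symbol is Krt or Cldn followed only by digits, together with Cdh1, Cdh2 and Cdh3. This rule uses names and not values, and it found 31 of the 24451 genes in the table, namely 13 keratins, 15 claudins and 3 cadherins. Liver RNA of 4 Brap LKO mice was compared with that of 4 Brap F/F mice by bulk RNA sequencing. By the labels all 8 mice were C57BL/6, 18 weeks old and fasted for 6 h, and RNA came from the left lobe. Every mouse carried 2 floxed alleles of Brap, which encodes a ubiquitin ligase. In Brap LKO mice a Cre transgene under the Albumin promoter, active in hepatocytes, removes exons 2 and 3, and Brap F/F mice carry no Cre. Reads per exon were not used here. The Brap count over the whole gene, 3641 to 4203 in Brap LKO and 3994 to 4410 in Brap F/F livers, overlapped between the groups and does not check the labels, so the groups are those the labels give.

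Keratins form the intermediate filaments of epithelial cells as obligate pairs of a type I and a type II chain, and hepatocytes carry the simple pair Krt8 and Krt18, while bile duct cells add Krt7 and Krt19. Claudins span the membrane at tight junctions, where they seal the gap between cells or form selective pores, and in liver these junctions separate bile from blood. Classical cadherins join neighbouring cells at adherens junctions. E-cadherin (Cdh1) and N-cadherin (Cdh2) are both made by hepatocytes.

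Values are normalized counts, which are reads on a gene divided by the authors by a size factor for each liver. Between 26280884 and 33313914 reads per liver fell on genes, and 1 read was worth 0.850 to 1.14 normalized counts. The members together took 0.0455% to 0.0932% of these reads. The 15352 genes with a mean of at least 5 over the 8 livers were compared with limma on log2(normalized count + 1), a scale that understates the fold of low genes, and p-values were adjusted over all of them. A gene was called at an adjusted p-value below 0.05. Unless said otherwise, a log2 fold change is Brap LKO minus Brap F/F and an interval is its 95% confidence interval. Exact p-values come from a two-sided exact permutation test of a single gene, which has 70 arrangements and cannot give less than 0.0286. Values of single livers follow the replicate number from 1 to 4.

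Of the 31 members, 22 could be tested (8 keratins, 11 claudins and the 3 cadherins). In the Brap LKO livers 1 of them, Cldn4, was called higher, where the background among all tested genes is 0.664%. None was called lower, where the background is 0.104%. By limma, 5 of the 22 (22.7%) had an unadjusted p-value below 0.05, against 15.8% of all tested genes. In 4 members (18.2%) every Brap LKO liver lay above every Brap F/F liver, against 5.48% of all tested genes, and in 0 members every Brap LKO liver lay below, against 4.39%. These 4 were Cldn4, Cdh3, Cldn7 and Krt19, all of them genes with few reads in liver. Cldn4 passed the minimum of 5 only through the Brap LKO livers, so its place among the tested genes is not independent of its difference, and Krt79 and Krt80 passed it only through the Brap F/F livers. Fitted values were higher in 14 members and lower in 8, with a median log2 fold change of 0.13, beside -0.01 over all tested genes, of which 48.0% were fitted higher. The interval held 0 for 17 of the 22.

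**Figure D1:**
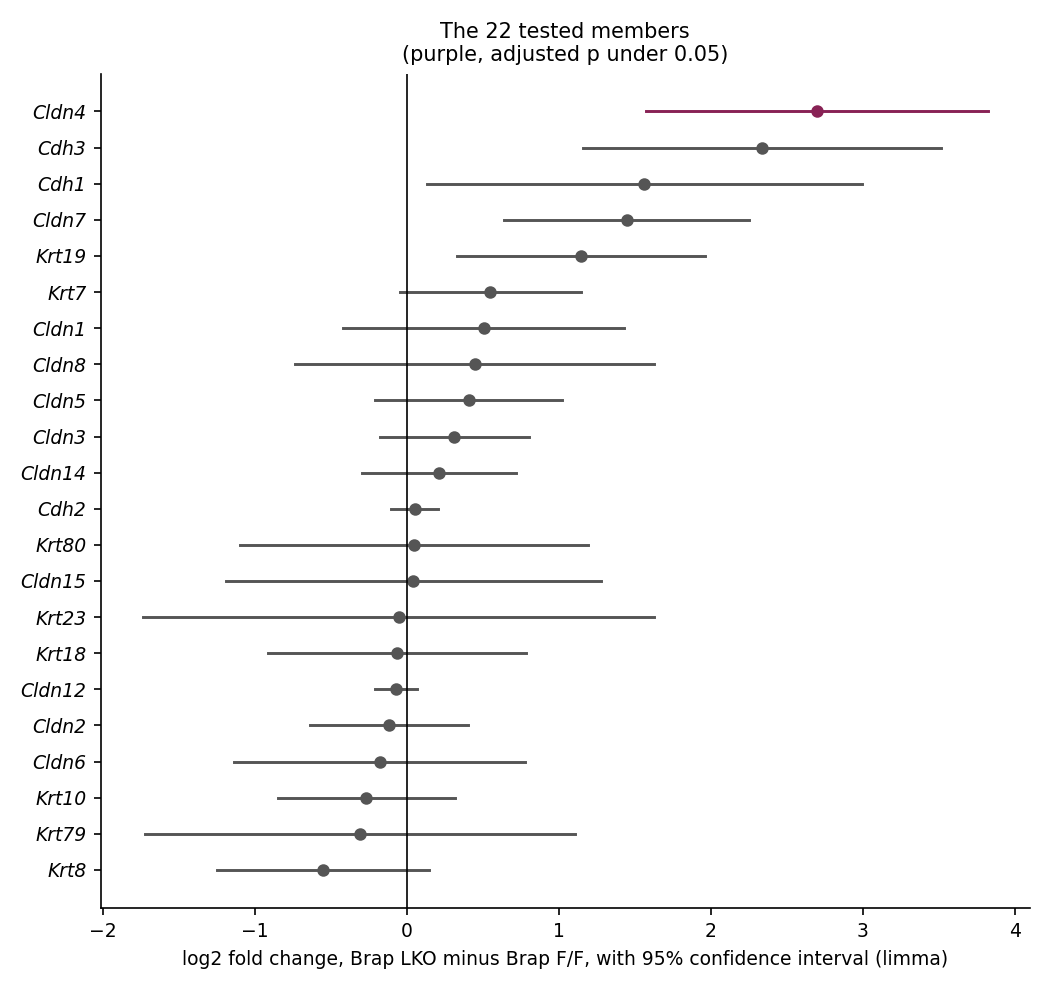
Log2 fold change, Brap LKO minus Brap F/F, with its 95% confidence interval from limma for each of the 22 tested members (n = 4 livers per group, purple for an adjusted p under 0.05). Cldn4 at 2.70 is past the threshold, Cdh3, Cdh1, Cldn7 and Krt19 have intervals above 0, and the other 17 intervals hold 0.

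The remaining 9 members (Krt4, Krt17, Krt28, Krt83, Krt222, Cldn11, Cldn18, Cldn20 and Cldn23) had 2 to 22 reads in all 8 livers together and at most 5 in any of them. In 3 of these (Krt4, Krt17 and Krt83) no Brap F/F liver had a read. Krt4, a keratin of squamous linings, had 4, 0, 1 and 5 reads in the Brap LKO livers, and Krt17, a keratin of basal and injured epithelium, had 2, 0, 0 and 3. These counts lie within a few reads of 0 and no difference was detectable at this depth.

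The simple epithelial pair was the most abundant of the keratins. Per kilobase of exon, the mean normalized count of Krt18 was 2888 in Brap LKO and 3378 in Brap F/F livers, and that of Krt8 was 1457 and 2308. The next keratin, Krt23, stood at 44.2 and 55.2 on the same scale. Krt19 at 22.1 and 9.45 was above Krt10 at 13.9 and 16.1 in the Brap LKO group and below it in the Brap F/F group, and Krt7 at 5.04 and 3.44 was below both. The place of Krt7 depends on the length used, all annotated exons together, which is 7049 bases for Krt7, 1855 for Krt19 and 2114 for Krt10. As normalized counts, the Brap LKO and Brap F/F means were 35.6 and 24.3 for Krt7, 41.0 and 17.5 for Krt19, and 29.4 and 34.1 for Krt10. The hepatocyte pair was thus far above the biliary keratins in both groups. Krt8 and Krt18 are neighbours on mouse chromosome 15 (mm10, Krt8 at 101996698-102004482 on the minus strand and Krt18 at 102028180-102032027 on the plus strand), with 23.7 kb and 0 annotated genes between them. Exons of Krt8 share 101 bases (5.16%) with an unnamed gene model on the other strand, and a processed pseudogene, Krt8-ps, had a normalized count of 1.05 to 12.8 in these livers, so a small share of their reads could be split between genes.

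Krt8, the type II chain, stood at 2626, 2289, 2934 and 3562 normalized counts in Brap LKO livers, against 5980, 2578, 2820 and 6701 in Brap F/F livers. The Brap F/F livers fell into a high pair, replicates 1 and 4, and a low pair, replicates 2 and 3, and the Brap LKO livers overlapped the low pair. The log2 fold change was -0.55 (standard error, SE, 0.310, interval -1.25 to 0.14, adjusted p = 0.414 by limma). Krt18, the type I partner, had 3583, 3649, 3677 and 5689 in Brap LKO and 6656, 2481, 2541 and 7739 in Brap F/F livers. Here all 4 Brap LKO livers lay between the low and the high pair of Brap F/F livers. Its log2 fold change was -0.06 (interval -0.91 to 0.79, adjusted p = 0.950 by limma), and the sign turned under other scalings and without Brap F/F replicate 1 or 4.

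Among claudins, Cldn3, a sealing claudin, led per kilobase of exon with a mean of 1703 in Brap LKO and 1440 in Brap F/F livers. Cldn12 followed with 620 and 651 and Cldn2 with 585 and 652, then Cldn1 with 224 and 178 and Cldn14 with 111 and 99.9. The gap between Cldn12 and Cldn2 was smaller than the spread of Cldn2 between livers in either group. Cldn3 had 2014, 2277, 2072 and 2215 normalized counts in Brap LKO and 2458, 1275, 1248 and 2271 in Brap F/F livers. All 4 Brap LKO livers stood close together, and Brap F/F replicates 2 and 3 lay below them. The log2 fold change was 0.31 (interval -0.18 to 0.80, adjusted p = 0.512 by limma).

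Cldn1, a sealing claudin that hepatocytes and bile duct cells share, had 1012, 1023, 776 and 1535 in Brap LKO and 1134, 483, 378 and 1457 in Brap F/F livers. The same 2 Brap F/F livers were again the lowest of the 8. Its log2 fold change was 0.51 (interval -0.42 to 1.43, adjusted p = 0.573 by limma). Cldn14, another barrier claudin, had 230, 249, 210 and 254 against 266, 179, 129 and 277, which gave a log2 fold change of 0.21 (interval -0.30 to 0.72, adjusted p = 0.669) that turned negative without Brap F/F replicate 3. Cldn2 forms a pore for cations and water and is a claudin of pericentral hepatocytes. It had 1558, 1806, 1913 and 2510 in Brap LKO and 3077, 1377, 1930 and 2290 in Brap F/F livers, with overlapping ranges and a log2 fold change of -0.12 (interval -0.64 to 0.40, adjusted p = 0.828). That sign turned without Brap F/F replicate 1 and with the same total per liver.

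Cldn12, which lacks the tail motif by which most claudins bind their scaffold, was nearly level across livers. Its normalized counts were 2605, 2641, 2792 and 2454 in Brap LKO and 2772, 2679, 2870 and 2695 in Brap F/F livers. The interval of its log2 fold change, -0.21 to 0.07, was the narrowest of all members (adjusted p = 0.598 by limma), around a value of -0.07 that was above 0 with quantile normalization or the same total per liver.

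The cadherins differed among themselves. N-cadherin (Cdh2) had 3204, 3543, 3533 and 3700 in Brap LKO and 3485, 3338, 3506 and 3156 in Brap F/F livers, with a log2 fold change of 0.05 (interval -0.10 to 0.20, adjusted p = 0.735 by limma). E-cadherin (Cdh1) had 1449, 1688, 1328 and 2766 in Brap LKO and 1068, 270, 215 and 1883 in Brap F/F livers. The Brap LKO livers spanned 2.08-fold and the Brap F/F livers 8.74-fold. Brap F/F replicates 2 and 3 were far below the other 6 livers, Brap F/F replicate 1 lay just below the Brap LKO livers, and Brap F/F replicate 4 lay above 3 of them. The standard deviation of the log2 value in Brap F/F livers was 1.52, and 0.905% of tested genes had one as large. Its log2 fold change of 1.56 (SE 0.637, interval 0.13 to 2.99) was not called (adjusted p = 0.285 by limma, exact p = 0.143). Per kilobase of exon the mean of Cdh1 was 395 in Brap LKO and 188 in Brap F/F livers, below Cdh2 at 433 and 418. In replicate 4 of each group the order was the reverse. It depends on the length used, all annotated exons together, which is 4574 bases for Cdh1 and 8066 for Cdh2.

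**Figure D2:**
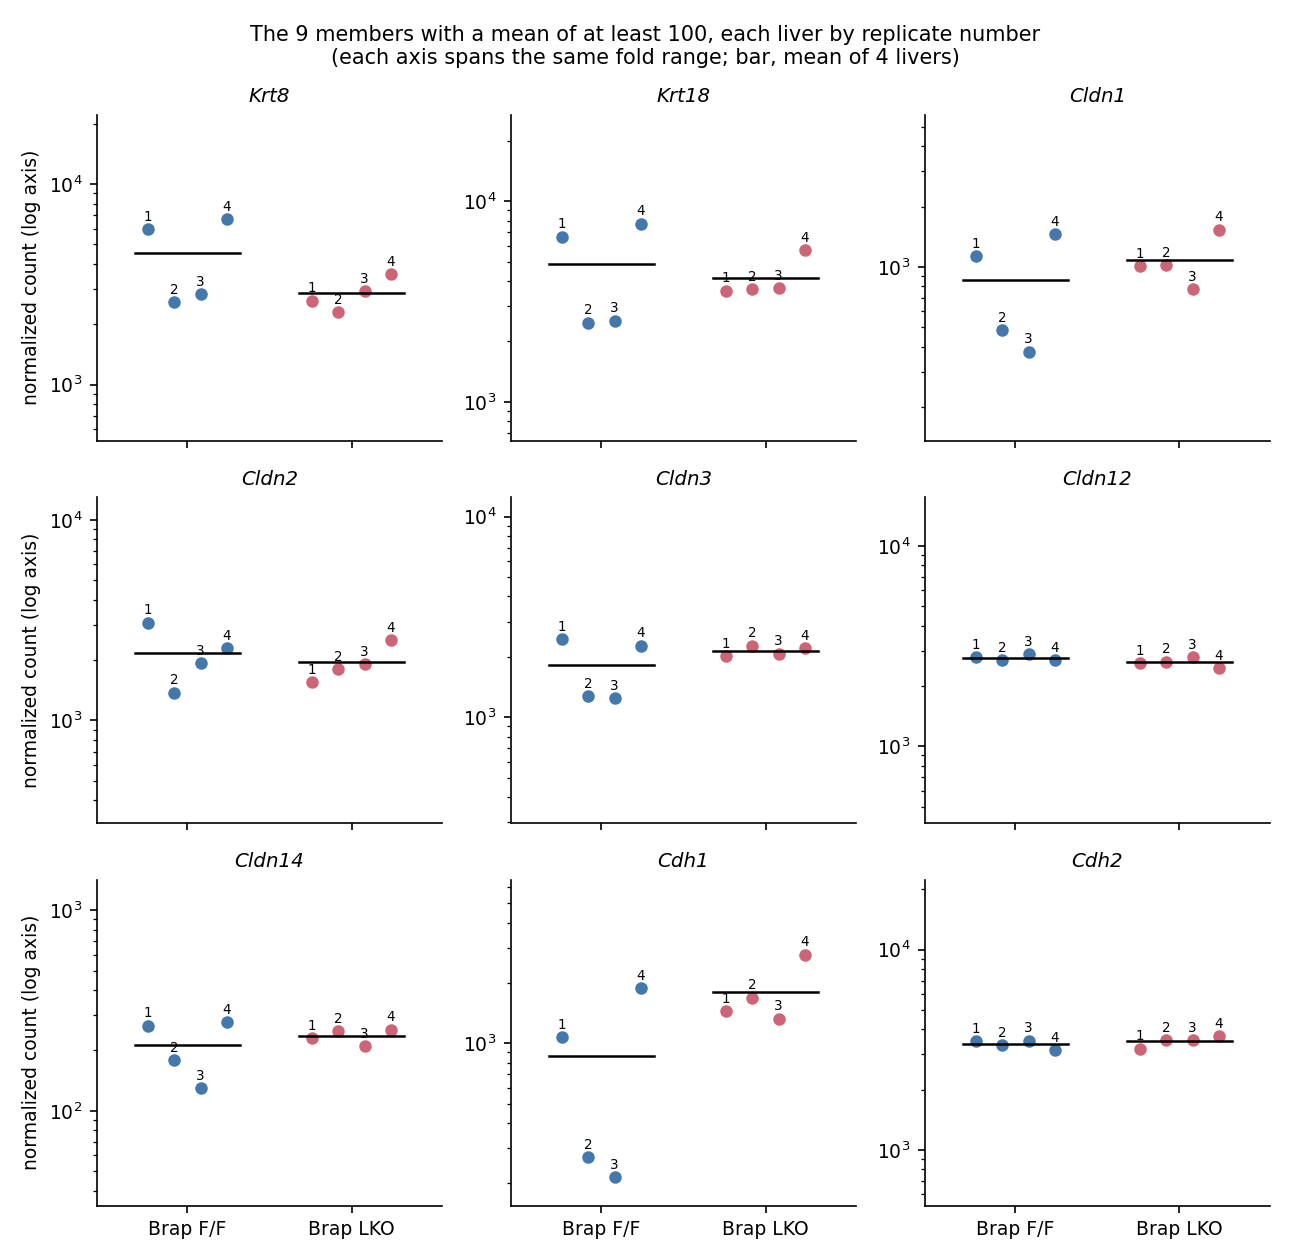
Normalized counts on a log axis of the 9 members with a mean of at least 100, 1 point per liver labelled with its replicate number and a bar at the mean of the 4 livers of each group (every panel spans the same fold range). In Krt8, Krt18, Cldn1, Cldn2, Cldn3, Cldn14 and Cdh1, Brap F/F replicates 2 and 3 lie below replicates 1 and 4, while Cldn12 and Cdh2 are level.

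The abundant members shared a split among the control livers. The 9 members with a mean of at least 100 held 98.4% of all member reads, and in 7 of them Brap F/F replicates 2 and 3 both lay below Brap F/F replicates 1 and 4, which held for 27.6% of all tested genes. In 0 of the 9 was it the other way around, and Cldn12 and Cdh2 were the members without the split. The standard deviation of log2 values was larger among Brap F/F than among Brap LKO livers in 7 of the 9, and in 64.0% of all tested genes, whose median was 0.219 in Brap F/F and 0.170 in Brap LKO livers. These members share libraries and are not independent observations of the split.

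Krt23, a keratin of simple epithelia that rises in stressed liver, ran the other way. It had 130, 86.6, 30.4 and 29.1 in Brap LKO and 29.6, 101, 196 and 19.6 in Brap F/F livers, so that Brap F/F replicates 2 and 3 were its high livers. The Brap F/F livers spanned 9.96-fold. The log2 fold change of -0.05 had an interval of -1.74 to 1.63 (adjusted p = 0.978 by limma), and its sign turned in 4 of the 8 fits without a liver and with the same total per liver.

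Genes of the hepatic acute phase moved with the same livers. A list of 17 such genes, chosen after the split had been seen, had summed normalized counts of 483230, 606359, 560960 and 875503 in the Brap LKO group, against 845739, 492956, 464615 and 1277600 in the Brap F/F group. Saa1, a serum amyloid A protein, was chosen after its values had been seen. It had 1071, 2415, 2572 and 4936 in Brap LKO and 6111, 344, 377 and 11160 in Brap F/F livers. The livers high in Krt8, Krt18, Cldn1 and Cdh1 within each group (Brap F/F replicates 1 and 4 and Brap LKO replicate 4) were the ones high in this sum. None of the 17 genes was called in either direction by limma (background 0.664% higher and 0.104% lower). An unadjusted p-value below 0.05 by limma was found in 0 of them, against 15.8% of all tested genes. The part of an acute phase in the member values was not tested.

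**Figure D3:**
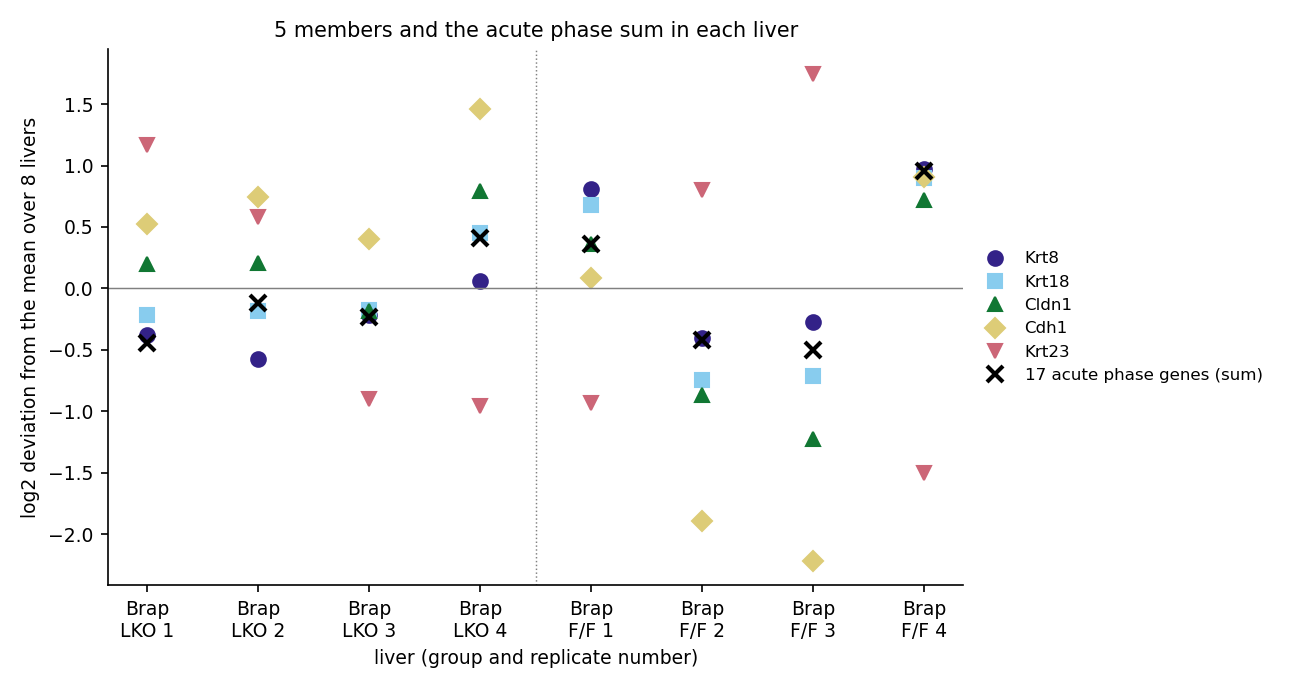
Log2 deviation from the mean over the 8 livers for Krt8, Krt18, Cldn1, Cdh1 and Krt23 (normalized count + 1) and for the summed normalized counts of 17 acute phase genes, with livers on the horizontal axis by group and replicate. Brap F/F replicates 2 and 3 are low in Krt8, Krt18, Cldn1, Cdh1 and the acute phase sum and high in Krt23, and Brap F/F replicate 4 shows the reverse.

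A ratio of reads between a pair of genes within a liver does not depend on how the libraries are scaled. Ratios were formed for all 36 pairs of the 9 abundant members after their values had been seen, and they are given as a description. In 8 pairs (22.2%) the 4 Brap LKO livers did not overlap the 4 Brap F/F livers, against 9.29% of the 51425011 pairs of all 10142 genes with a mean of at least 100. These 8 pairs share genes, and 5 of them have Krt8 below the line. The ratio of Krt18 to Krt8 was 1.36, 1.59, 1.25 and 1.60 in Brap LKO and 1.11, 0.963, 0.901 and 1.15 in Brap F/F livers. The partners were thus close to even in reads in every control liver, in the high as in the low pair. In each Brap LKO liver the reads tilted to Krt18, a log2 difference of 0.49. Even reads are not even levels, since Krt18 has 1437 annotated exon bases and Krt8 has 1958. Per kilobase of exon, the mean of Krt18 was above that of Krt8 in Brap F/F livers too (3378 and 2308).

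For Cdh1 to Krt8 the ratio was 0.552, 0.737, 0.453 and 0.777 in Brap LKO and 0.179, 0.105, 0.0764 and 0.281 in Brap F/F livers, the widest of the pairs with a log2 difference of 2.12. Cldn1 to Krt8 was 0.385, 0.447, 0.264 and 0.431 against 0.190, 0.187, 0.134 and 0.217 (log2 difference 1.06). Among the control livers, both E-cadherin and claudin 1 spanned a narrower range as a ratio to Krt8 than by their own levels. Cdh1 to Cldn1 was 1.43, 1.65, 1.71 and 1.80 in Brap LKO and 0.942, 0.558, 0.569 and 1.29 in Brap F/F livers (log2 difference 1.06). The other pairs without overlap were Cdh1 to Krt18 (log2 difference 1.63), Cldn3 to Krt8 (0.86), Cldn14 to Krt8 (0.77) and Cldn1 to Krt18 (0.57). Leaving out any single liver kept the log2 difference between 0.43 and 0.56 for Krt18 to Krt8, between 1.82 and 2.45 for Cdh1 to Krt8 and between 0.89 and 1.30 for Cdh1 to Cldn1.

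**Figure D4:**
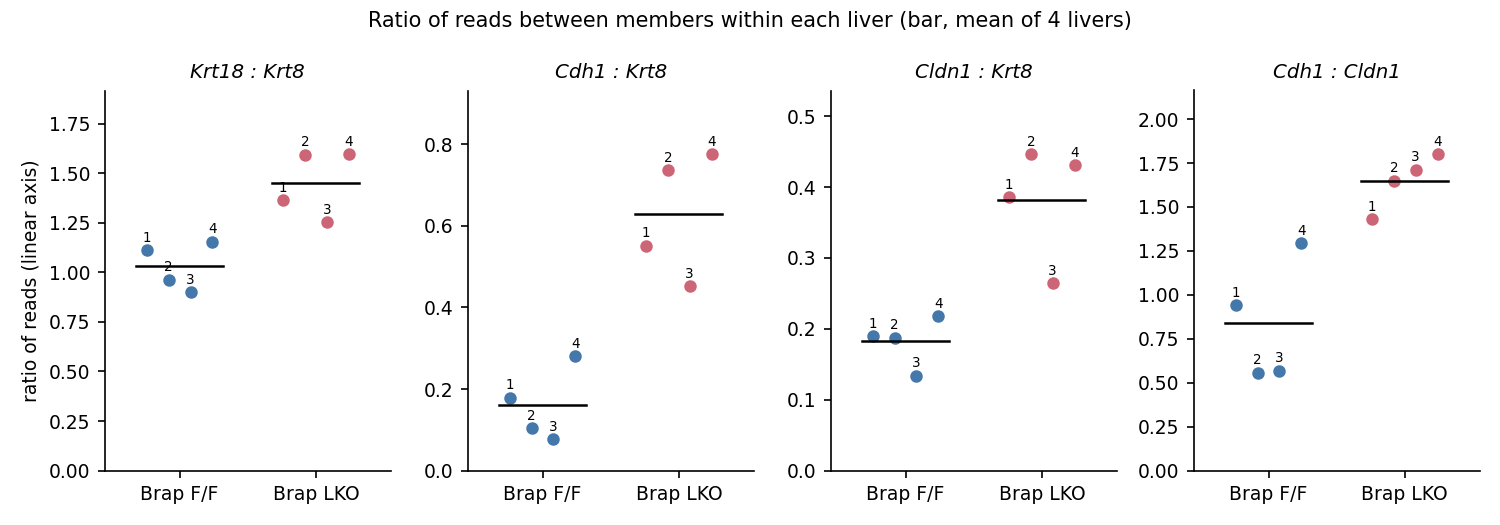
Ratio of reads between members within each liver on linear axes from 0, for Krt18 to Krt8, Cdh1 to Krt8, Cldn1 to Krt8 and Cdh1 to Cldn1 (points, livers by replicate number, bars, mean of 4 livers). In each panel the 4 Brap LKO livers lie above the 4 Brap F/F livers.

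Cldn4, Cdh3, Cldn7, Krt19 and Krt7, which bile ducts or other lining epithelia are known to make, were low in liver. They are grouped here after their values had been seen, and other members of lining epithelia such as Krt23, Cldn6 and Cldn15 had log2 fold changes of -0.05, -0.18 and 0.04. Cldn4, a claudin of ducts and other lining epithelia, had 12, 5, 9 and 21 reads in the Brap LKO livers and 0, 1, 1 and 1 in the Brap F/F livers. As normalized counts this was 11.5 ± 7.43 (SD, n = 4) against 0.762 ± 0.509 (SD, n = 4). Every Brap LKO liver lay above every Brap F/F liver. Taking the floor of 3 reads in each Brap F/F library, it was at least 3.67-fold higher in Brap LKO livers. The fitted log2 fold change was 2.70 (SE 0.501, adjusted p = 0.0494 by limma, exact p = 0.0286), just past the threshold, and the adjusted p-value lay between 0.00951 and 0.174 over 19 other settings and was past the threshold in 6 of them. Among the fits without 1 liver, the call held without Brap LKO replicate 2 and was lost without any one of the other 7.

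Cldn4 lies next to Cldn3 on chromosome 5, with 39279 bases and 0 annotated genes between them. The 200 bases before the RefSeq start of each (GRCm38.p6, the assembly of mm10) are shown because these neighbours stood so far apart in level and response. Capitals mark CACCTG, which is the E-box CAGGTG read on the other strand. Cldn4 is at chr5:134946935-134947134 on the minus strand and Cldn3 at chr5:134986014-134986213 on the plus strand.
Cldn4: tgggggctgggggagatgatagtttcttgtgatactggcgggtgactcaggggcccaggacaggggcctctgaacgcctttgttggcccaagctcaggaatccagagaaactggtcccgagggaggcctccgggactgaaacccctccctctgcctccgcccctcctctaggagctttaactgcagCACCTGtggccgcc
Cldn3: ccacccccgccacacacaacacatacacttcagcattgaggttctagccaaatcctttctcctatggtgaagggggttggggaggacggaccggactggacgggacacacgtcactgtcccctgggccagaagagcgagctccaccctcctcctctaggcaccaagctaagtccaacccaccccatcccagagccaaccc
CAGGTG, searched on both strands, was found in the Cldn4 window and not in the Cldn3 window. It was found in 8 of the 26 member windows searched, which cover 20 members and no cadherin. It occurs in 13.9% of the 32851 windows of this length over all genes. GGAATG, the core of the TEAD motif, was found in 2 of the 26 member windows and in 10.1% of all windows, and TATAAA in 3 and in 9.96%. Neither is in the Cldn4 or the Cldn3 window. These are letter matches in short windows and not measured binding.

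Cdh3 (P-cadherin, of basal epithelia) had 16.4, 17.8, 29.3 and 45.8 normalized counts in Brap LKO and 2.28, 2.03, 4.20 and 12.8 in Brap F/F livers. The groups did not overlap, with Brap F/F replicate 4 nearest to the Brap LKO livers. Its log2 fold change of 2.34 (SE 0.524, interval 1.16 to 3.52) missed the threshold (adjusted p = 0.0845 by limma, exact p = 0.0286). Without Brap F/F replicate 4 it was past it, with a log2 fold change of 2.81 and an adjusted p-value of 0.0229 by limma, and without any one of the other 7 livers its adjusted p-value was 0.138 to 0.208. Cdh3 and Cdh1 lie 46053 bases apart on chromosome 8 with 2 genes between them.

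Cldn7, a claudin of ducts that binds Epcam, had 29.1, 20.4, 13.2 and 34.3 in Brap LKO and 7.98, 12.2, 7.36 and 4.91 in Brap F/F livers. The highest Brap F/F liver came within a normalized count of about 1 of the lowest Brap LKO liver. The log2 fold change was 1.45 (SE 0.359, interval 0.64 to 2.25, adjusted p = 0.104 by limma, exact p = 0.0286). Krt19, the type I keratin by which bile ducts are stained, had 41.0, 27.2, 27.3 and 68.6 in Brap LKO and 10.3, 14.2, 22.1 and 23.5 in Brap F/F livers. Its groups also did not overlap, and its log2 fold change was 1.15 (SE 0.362, interval 0.33 to 1.96, adjusted p = 0.181 by limma, exact p = 0.0286). The mouse numbers in the labels fall into a low and a high range, a split made here that no label names, with 3 of 4 Brap LKO livers in the low and 3 of 4 Brap F/F livers in the high range. With this split as a covariate Krt19 was past the threshold (adjusted p = 0.0418 by limma). This was the only 1 of 20 other settings in which it was, and its adjusted p-value reached 0.395 among them. Krt7, its type II partner in bile ducts, had 28.2, 29.7, 36.4 and 47.8 against 17.1, 19.3, 27.3 and 33.4. Those ranges overlapped, with a log2 fold change of 0.55 (SE 0.265, interval -0.05 to 1.15, adjusted p = 0.352 by limma, exact p = 0.114). Brap LKO replicate 4 was the highest of the 8 livers in Cldn4, Cdh3, Cldn7, Krt19 and Krt7 alike.

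**Figure D5:**
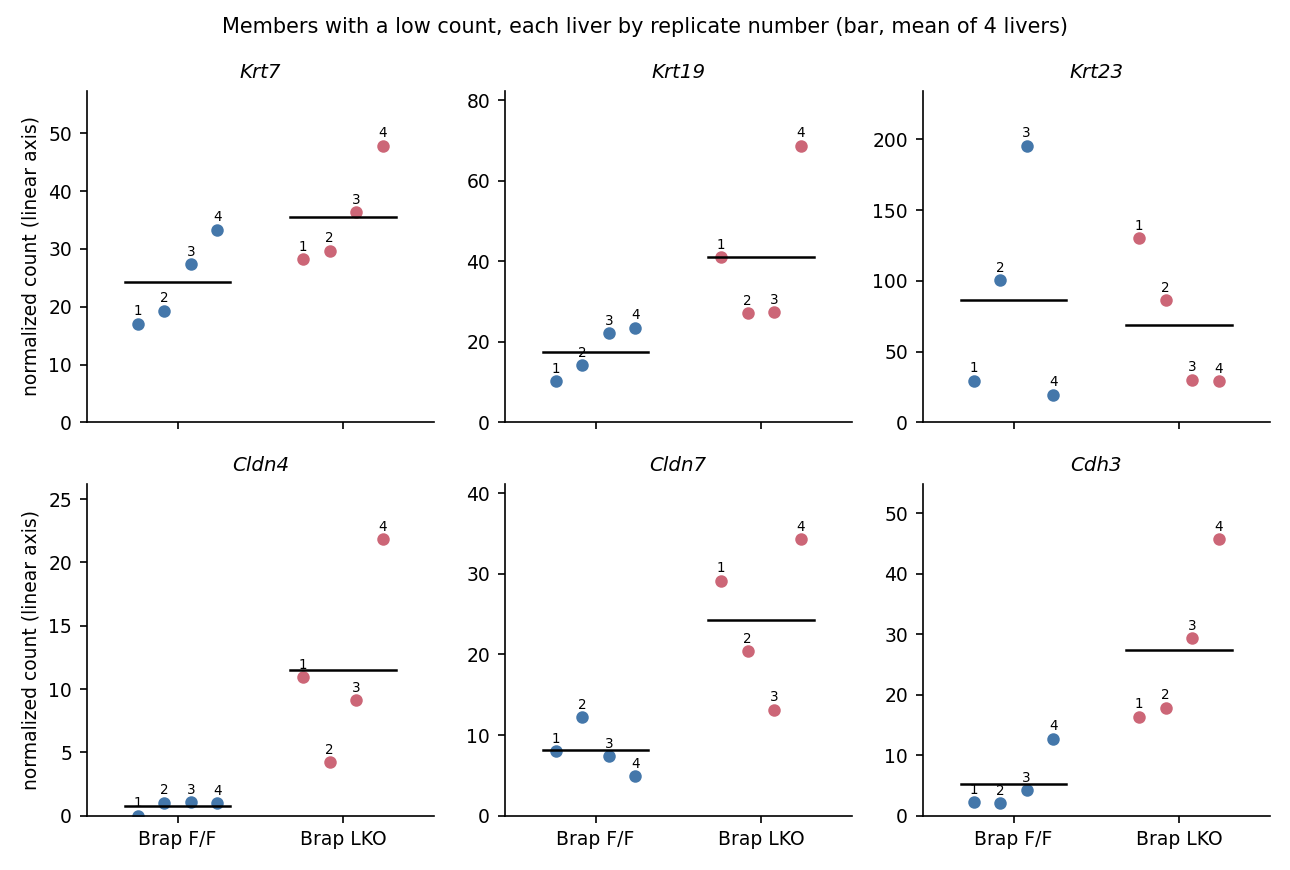
Normalized counts on linear axes from 0 of 6 members with few reads, 1 point per liver labelled with its replicate number and a bar at the mean of the 4 livers of each group. The groups do not overlap in Krt19, Cldn4, Cldn7 and Cdh3 and overlap in Krt7 and Krt23.

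Other markers of bile duct cells had higher fitted values as well. Of a list of 11 cholangiocyte genes that holds no member, 9 could be tested. All 9 were fitted higher, with a median log2 fold change of 0.95, beside 48.0% fitted higher among all tested genes. Of the 9, 2 were called higher (22.2%, background 0.664%). The calls were Bicc1, an RNA-binding protein of ducts (236, 182, 248 and 431 against 83.2, 89.5, 82.0 and 113, log2 fold change 1.50, adjusted p = 0.0313 by limma), and Cftr, the chloride channel of ducts (16.4, 16.1, 6.07 and 17.7 against 0, 1.02, 2.10 and 0.981, log2 fold change 2.91, adjusted p = 0.0331 by limma). Cftr passed the minimum of 5 only through the Brap LKO livers, so its call is no independent support. Both calls were lost in 5 of the 8 fits without 1 liver, with adjusted p-values of up to 0.102 for Bicc1 and 0.133 for Cftr, Bicc1 also without the trend and Cftr also with quantile normalization or with the replicate number as a block. Epcam (log2 fold change 0.96, adjusted p = 0.127), Spp1 (0.95, adjusted p = 0.198) and Sox9 (0.72, adjusted p = 0.239) were not called. The summed level of the list was 2381 to 4524 in Brap LKO and 1418 to 2386 in Brap F/F livers. In bulk RNA, more cells of a type and more RNA per cell cannot be told apart, and the part of bile duct cells in the values of Krt19, Cldn4, Cldn7 and Cdh3 was not tested.

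The markers of other cells that could add such genes were read in the same way. Of 8 mesothelium genes 7 were tested, with 3 fitted higher and 4 lower and sums of 64.6 to 250 in Brap LKO and 54.7 to 187 in Brap F/F livers. Of the 7, 1 was called higher (14.3%, background 0.664%). Wt1, a transcription factor of mesothelium, was called higher (40.1, 28.9, 53.6 and 51.0 against 5.70, 9.15, 4.20 and 10.8, log2 fold change 2.43, adjusted p = 0.0177 by limma, past the threshold in 16 of 20 other settings), while the defining marker Msln was not (0.12, adjusted p = 0.945), with a sign that turned in some settings. Of 8 keratinocyte genes 5 were in the table and 3 tested, with 1 called lower (33.3%, background 0.104%). This was Perp, also a desmosome gene, described with the partners. Dsg3, Dsc3 and Flg, which define stratified epithelium, were not among the genes of the table, nor was Trp63 high enough to test. Of 5 pancreas genes, Cela2a was in the table. Their part in the member values was not tested. Hepatocyte markers were present throughout, with 3 of 9 tested genes fitted higher, 6 lower and 0 called. Alb, the albumin gene, stood at -0.52 on the log2 scale (adjusted p = 0.634 by limma). Of 6 macrophage genes all were fitted higher (median 0.47, 0 called), and of 7 stellate cell and fibroblast genes 6 were (median 0.37). Of these 7, 1 was called higher (14.3%, background 0.664%). The called gene, Pdgfrb (log2 fold change 0.91, adjusted p = 0.0494 by limma), was past the threshold in 9 of 20 other settings and in 1 of the 8 fits without a liver.

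None of the other tested members was called. Cldn5, the claudin of endothelium, had 126, 112, 95.1 and 81.1 in Brap LKO and 83.2, 45.8, 74.6 and 122 in Brap F/F livers (log2 fold change 0.41, interval -0.21 to 1.02, adjusted p = 0.494 by limma). The endothelial cadherin Cdh5, no member, stood at 0.29 on the log2 scale (adjusted p = 0.373), and 8 of 8 endothelium genes were fitted higher with 0 called by limma and a median of 0.26. Krt10, a keratin of outer epidermal layers, had 24.6, 35.7, 39.5 and 17.7 against 37.6, 30.5, 36.8 and 31.4 (log2 fold change -0.27, adjusted p = 0.637). Krt79, Krt80, Cldn6, Cldn8 and Cldn15 had means of 4.71 to 9.42 in both groups. Their log2 fold changes lay from -0.31 in Krt79 to 0.45 in Cldn8, and Cldn6, a claudin of embryonic epithelia, stood at -0.18 (interval -1.13 to 0.78, adjusted p = 0.860 by limma).

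The junction and filament partners of the members were read next. A list of 56 genes that holds no member covered tight junctions (27), adherens junctions (12), desmosomes (10) and the keratin network (7), and all 56 were tested. Of these, 37 were fitted higher and 19 lower with a median log2 fold change of 0.07, 0 were called higher by limma (background 0.664%) and 1 lower (1.79%, background 0.104%), and 9 (16.1%) had an unadjusted p-value below 0.05, close to the background of 15.8%. The called gene was Perp, a desmosome protein that p53 induces, with 2387, 2408, 2624 and 2535 in Brap LKO and 3512, 3567, 3663 and 3026 in Brap F/F livers. All Brap LKO livers lay below all Brap F/F livers (log2 fold change -0.47, SE 0.0755, adjusted p = 0.0332 by limma), and it was past the threshold in 8 of 20 other settings, which include 1 of the 8 fits without a liver (Brap F/F replicate 4).

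Among tight junction partners, the scaffold Tjp1 stood at a log2 fold change of 0.14 (adjusted p = 0.316) and Ocln at 0.23 (adjusted p = 0.561), both above the list median of 0.07. The cadherin-binding catenins stood near 0, with Ctnnb1 at 0.04 (adjusted p = 0.862) and Jup at 0.00 (adjusted p = 0.985), and so was the desmosome plaque protein Dsp at 0.03 (adjusted p = 0.870). The signs of these 3 turned in some settings. Median log2 fold changes were 0.00 for adherens junctions and -0.01 for desmosomes. The 10 desmosome genes were not all near 0, with 5 fitted higher and 5 lower, from -1.07 to 0.91. Of these 10, 3 had an unadjusted p-value below 0.05 by limma (30%, background 15.8%). In 2 of the 10, Perp among them, every Brap LKO liver lay below every Brap F/F liver, against 4.39% of all tested genes. In 0 of the 10 every Brap LKO liver lay above, against 5.48%. All 7 genes of the keratin network were fitted higher with a median of 0.14 and 0 calls by limma. Of them, 2 had an unadjusted p-value below 0.05 by limma (28.6%, background 15.8%). Plec, the linker of filaments to junctions, stood at 0.14 (adjusted p = 0.560).

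A last list held transcription factors and splicing factors that act on epithelial gene programs. It pooled factors that favour these programs with Snai1, Snai2, Twist1, Twist2, Zeb1 and Zeb2, which are known to repress epithelial genes. Its counts therefore give no direction for such a program. Of its 16 genes 13 were tested. Of these, 11 were fitted higher and 2 lower with a median log2 fold change of 0.44, 0 were called by limma, 6 (46.2%, background 15.8%) had an unadjusted p-value below 0.05, and in 5 (38.5%, background 5.48%) every Brap LKO liver lay above every Brap F/F liver. Grhl2 and Esrp1, both among these 5, passed the minimum of 5 only through the Brap LKO livers (means of 3.90 and 4.73 in Brap F/F livers). Ehf, an ETS factor of ducts, had the highest fitted value, a log2 fold change of 1.76 (adjusted p = 0.0750 by limma). It was chosen for naming after its value had been seen.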

How the data were processed

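The members and gene lists were chosen with earlier results of these data known. Libraries of 8 livers were read from 1 end, at 50 bases. The submitters' processing notes name FastQC, STAR 2.6.0c, DESeq2 and mm10; the counting tool, annotation and use of strand are not given in the sources used here. The deposited signal is the authors' DESeq2-normalized read number of each gene, scaled per liver by a size factor. All values (100%) were whole multiples of 1 read within 0.001, so reads were recovered by division. The table of the authors' own comparison (mean, log2 fold change, its error, p-values) was not used, and 0 other per-liver columns were left out. The paper describes its controls as littermates. Which of these livers shared a litter or day is not given in the sources used here. The limma p-values set the difference between the groups against the spread among the 4 livers within each group, moderated over all tested genes.

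Genes with a mean of at least 5 were fitted with limma 3.58.1 in R 4.3.3 (lmFit, eBayes with trend) on log2(normalized count + 1) without covariates, and p-values were adjusted by Benjamini-Hochberg over all of them. limma was used because the deposited values are normalized and not counts, although reads could be recovered from them. edgeR 4.0.16 (quasi-likelihood) and DESeq2 1.42.0 on recovered reads were alternatives, with other pseudocounts, filters, scalings, covariates and each liver left out. The floor of 3 reads covers counting error only. Named genes were the members past the threshold, a set of 18 members given by name, the 5 largest fitted rises and the 5 largest falls, and list genes past the threshold or given by name; other genes, among them Krt4, Krt17, Saa1 and Ehf, were chosen after their values were seen. Positions are from GENCODE vM21 (GRCm38), in which all 31 members were found. Same-numbered livers of the groups correlated at -0.129, 0.00336, 0.196 and 0.292, so numbers were not taken to pair mice. Python 3.11.15 was used with pandas 2.3.3 and matplotlib 3.10.9.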

Additional observations from a re-analysis of the deposited data

Results flagged for a closer look

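Of 80 groups of 4 livers examined over the named genes and lists, 4 held a liver set apart from the other 3, and chance gives about 4. Krt18 was 5689 in Brap LKO replicate 4, beside 3583 to 3677 in the other 3 Brap LKO livers. Epcam was 129 in the same liver, beside 59.7 to 68.3. Cftr was 6.07 in Brap LKO replicate 3, beside 16.1 to 17.7. Cldn4 was 0 in Brap F/F replicate 1, beside 0.981 to 1.05 in its group, a difference of 1 read.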

How the results depend on the processing

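Of the 31 members, 1 was called higher (Cldn4). The number was 0 with a pseudocount of 0.5 or 5, a minimum mean of 20, quantile normalization, limma without the trend or edgeR, 3 with the same total per liver or DESeq2 (Cldn4, Cdh3 and Cldn7), 2 with the low or high range of mouse numbers (the series) as a covariate (Cldn4 and Krt19), 2 at an adjusted p-value below 0.1, and 0 to 1 with any liver left out. The minimum mean of 20 removes Cldn4 from the tested genes. The number called lower was 0 under each of these settings. These counts are to be read against all tested genes, of which the main fit called 102 of 15352 higher and 16 lower. With the same total per liver 459 of 15352 were called higher and 20 lower, and with DESeq2 448 of 16387 higher and 159 lower. Of the junction partners, 0 were called higher, but 3 with the same total per liver, 1 with the series, 2 with DESeq2, 1 at an adjusted p-value below 0.1, and 0 to 1 with a liver left out. The 1 called lower became 0 with quantile normalization, the same total, no trend or the series, 3 with DESeq2 or at an adjusted p-value below 0.1, and 0 to 2 with a liver left out. The median over tested members (0.13) lay between 0.10 and 0.36. The same total per liver moved the median of all genes to 0.15, so its values are to be read against that shift. Livers of a group share a number with the other group but nothing shows that the numbers pair them. With the replicate number as a block, 1 member was called higher (Cdh3, and not Cldn4) and 0 partners lower.

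Signs of uncalled genes turned as follows. With the same total per liver, log2 fold changes were 0.086 for Cldn12, 0.040 for Cldn2, 0.095 for Krt18 and 0.10 for Krt23. With quantile normalization they were 0.0053 for Cldn12, 0.019 for Krt18 and -0.082 for Msln. With the series as a covariate they were -0.027 for Dsp and -0.055 for Jup. With a liver left out, the ranges that crossed 0 were -0.32 to 0.23 for Krt18, -0.0051 to 0.36 for Cldn14, -0.32 to 0.070 for Cldn2, -0.56 to 0.52 for Krt23, -0.66 to 0.16 for Krt79, -0.028 to 0.12 for Ctnnb1, -0.022 to 0.069 for Dsp, -0.056 to 0.083 for Jup and -0.42 to 0.67 for Msln. Of 738 single values under other settings, 648 kept sign and side of the threshold, 53 lost it, 9 gained it and 28 turned sign. The cause of these moves was not tested. Depth limits the members under a mean of 5.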
